A study of Mus musculus with 8 samples.

Results

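The genes described here are the 10 listed genes that make, phosphorylate or consume nicotinamide adenine dinucleotide (NAD): Nampt, Naprt, Nadsyn1, Nmnat1, Nmnat3, Nadk, Cd38, Bst1, Sirt1 and Sirt6. Their rows were taken by symbol from a table of raw read counts for 24062 genes; Naprt stands there under its older symbol Naprt1. All 10 were present, and none was lost to the low-count filter, which left 13197 genes to test. RNA-seq was performed on bone marrow cultures labelled as immature myeloid cells (IMCs), from C57BL/6 mice aged 2 months, grown for 3 days with 40 ng/mL M-CSF, a growth factor for monocytes and macrophages. There were 4 groups of 2 libraries each. The PARP1 WT group was PARP1 flox/flox without Cre, and the PARP1CKO group carried PARP1 flox/flox with lysozyme-Cre. The PARP2 WT group was PARP2 flox/flox without Cre, and the PARP2CKO group carried PARP2 flox/flox with lysozyme-Cre. Both WT groups therefore carry floxed alleles, and no Cre-only group was analysed here. Lysozyme-Cre acts in the myeloid lineage, so other marrow cells in the culture can keep the gene. The series is described as biological duplicates with littermate controls, and which mice each library came from and which libraries shared a litter or a culture day is not given in the sources used here. PARP1-line and PARP2-line refer below to the 4 libraries of each floxed strain.

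NAD is a redox cofactor and is also split by several enzymes, which release nicotinamide. PARP1 and PARP2 are such enzymes: they build poly-ADP-ribose chains from NAD at DNA breaks. Sirtuins use NAD to remove acyl groups from proteins, and CD38 and BST1 are NAD glycohydrolases on the cell surface. Nicotinamide is returned to NAD by NAMPT and then the NMNAT enzymes, while nicotinic acid enters through NAPRT, the NMNAT enzymes and NADSYN1. The question put to these genes is whether RNA for NAD supply or for the other NAD users differed when PARP1 or PARP2 was deleted.

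The 8 libraries held 37852450 to 61845125 counted reads, and the 10 genes took 0.0535% to 0.0624% of each. Levels are given as CPM, the share of a library's counts taken by a gene, in parts per 1000000, with library sizes scaled by the TMM method. Each targeted gene was lower in its knockout than in the WT group of its line. The PARP1 WT libraries had 202 and 211 CPM of Parp1, and the PARP1CKO libraries 63.2 and 59.1 CPM, which gave a log2 fold change of -1.75 ± 0.178 (SE, n = 2 against 2; adjusted p = 0.0134). Of Parp2, the PARP2 WT libraries had 48.2 and 48.3 CPM and the PARP2CKO libraries 25.7 and 25.6 CPM, which gave a log2 fold change of -0.91 ± 0.0453 (SE; adjusted p = 0.000139). Both transcripts thus remained detectable after deletion. Parp1 itself differed between the 2 PARP2 WT libraries, at 251 and 155 CPM. Both lay below the PARP2CKO libraries, at 263 and 264 CPM (log2 0.37, adjusted p = 0.954). Parp2 differed between the WT groups, with 39.05 and 40.77 CPM in the PARP1 WT libraries. PARP2 WT against PARP1 WT gave it a log2 fold change of 0.27 ± 0.0445 (SE, adjusted p = 0.0159), where 3.16% of all genes passed. All p-values, unless named otherwise, are from edgeR's quasi-likelihood test over the 8 libraries with Benjamini-Hochberg adjustment over all 13197 genes, with 0.05 as the threshold. With 2 libraries against 2, a permutation test of a single gene cannot go below p = 0.3333.

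Myeloid markers dominated the marker lists checked, and Ly6g was not analysed here. Summed over each list, the immature myeloid markers (7 of 8 in the table) lay between 3001 and 3195 CPM, the monocyte and macrophage markers (9 of 9) between 3326 and 3640 CPM in the PARP1 line and between 3796 and 4131 CPM in the PARP2 line, and the neutrophil markers (11 of 12) between 2793 and 3620 CPM. Within the immature myeloid list, Csf1r lay at 1134 to 1273 CPM and Itgam at 881 to 1035 CPM. Ly6c2 lay at 53.9 to 72.2 CPM and Ly6c1 at 0.605 to 1.02 CPM, so the sum by itself does not show that the cells were immature. B cell and plasma cell markers summed to 30.6 to 46.0 CPM in the PARP1-line libraries and 9.17 to 13.3 CPM in the PARP2-line libraries. Interferon response genes summed to 203 to 376 CPM and 144 to 184 CPM in the same order, basophil and mast cell markers to 14.8 to 20.9 CPM and 8.13 to 12.7 CPM, and erythroid markers to 5.06 to 10.3 CPM and 2.06 to 2.77 CPM. The erythroid genes Hba-a1 and Hba-a2 had the same level in each library, so the erythroid sum holds the same value under both names. Progenitor markers lay at 77.8 to 101 CPM and 64.7 to 73.7 CPM. T and NK cell markers (2.22 to 3.54 CPM and 1.39 to 2.33 CPM), dendritic markers (29.6 to 41.4 CPM and 32.6 to 42.5 CPM) and stroma markers (1.73 to 3.57 CPM and 1.96 to 3.23 CPM) overlapped between the lines.

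Per length of exon, Nampt and Nadk stood far above the other members. Nampt, the rate-limiting enzyme of salvage from nicotinamide, had the highest level at 61.4 ± 5.09 CPM per kb (SD over 8 libraries), and Nadk, the cytosolic NAD kinase that makes NADP, followed at 44.5 ± 1.57 CPM per kb. For scale, Parp1 lay at 38.2 and 39.8 CPM per kb in PARP1 WT, below Nadk in both libraries (43.8 and 44.1 CPM per kb). In PARP2 WT it lay at 47.5 and 29.4 CPM per kb, above Nadk (45.6 and 45.1 CPM per kb) in one library and below it in the other. The nuclear sirtuins came next, Sirt1 at 7.83 ± 0.404 CPM per kb and Sirt6 at 5.05 ± 0.288 CPM per kb. Bst1 lay at 2.99 ± 0.514 CPM per kb. Nadsyn1, the glutamine-dependent NAD synthetase, lay at 2.24 ± 0.130 CPM per kb. Nmnat1, the nuclear adenylyl transferase, lay at 1.89 ± 0.117 CPM per kb, and Nmnat3, the mitochondrial one, at 1.74 ± 0.0809 CPM per kb. The libraries of these last 2 genes overlapped, and those of Bst1 overlapped with those of Nadsyn1. Naprt, the entry enzyme for nicotinic acid, was at 0.5002 ± 0.0891 CPM per kb and Cd38 at 0.398 ± 0.132 CPM per kb, also with overlapping libraries. The order of these last 2 depended on the line: Cd38 lay at 0.474 to 0.609 CPM per kb and Naprt at 0.396 to 0.541 CPM per kb in the PARP1 line, with overlap, while in the PARP2 line Cd38 (0.261 to 0.298 CPM per kb) lay below Naprt (0.408 to 0.631 CPM per kb). Averaged over all 8 libraries, the level of Nampt was 123-fold that of Naprt and 154-fold that of Cd38. With the length of the longest transcript in place of all exons, Nmnat3 rose to 4.02 CPM per kb, above Bst1, Nadsyn1 and Nmnat1, so its place in the order depended on the length used.

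**Figure D1:**
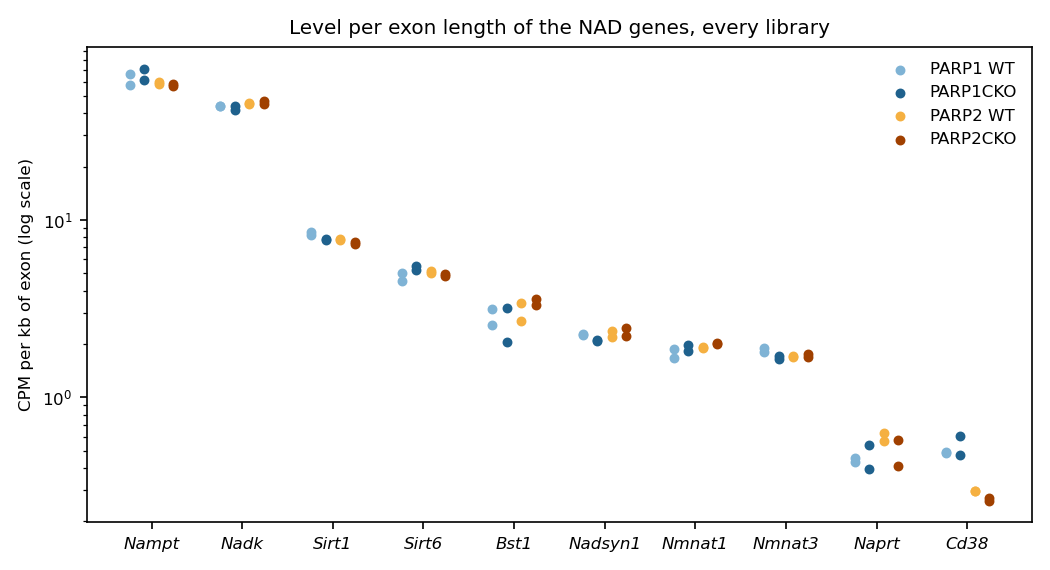
Level of each NAD gene per kb of exon (CPM per kb, log scale) in every library, coloured by group. Nampt and Nadk lie at 41.7 CPM per kb or more in all 8 libraries, and Naprt and Cd38 at 0.631 CPM per kb or less.

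In GRCm38 (GENCODE M21), the members lie on 7 chromosomes: Nampt at chr12:32819545-32853349, Naprt at chr15:75890956-75894481, Nadsyn1 at chr7:143795584-143822849, Nmnat1 at chr4:149467572-149485202, Nmnat3 at chr9:98287435-98420438, Nadk at chr4:155562378-155591001, Sirt1 at chr10:63319005-63381704 and Sirt6 at chr10:81621785-81627797, with Cd38 and Bst1 side by side on chromosome 5. Promoter sequence is shown for Nampt and Cd38, the members with the highest and the lowest mean level per length over all 8 libraries. The windows are the 250 bases upstream of the RefSeq start in GRCm38.p6, on the + strand, at chr12:32820085-32820334 for Nampt and chr5:43868559-43868808 for Cd38. Both RefSeq starts lie downstream of the GENCODE M21 gene starts (chr12:32819545 for Nampt and chr5:43868553 for Cd38), so these windows fall inside the GENCODE gene spans. They run 5′ to 3′, and capitals mark each CG dinucleotide.
Nampt: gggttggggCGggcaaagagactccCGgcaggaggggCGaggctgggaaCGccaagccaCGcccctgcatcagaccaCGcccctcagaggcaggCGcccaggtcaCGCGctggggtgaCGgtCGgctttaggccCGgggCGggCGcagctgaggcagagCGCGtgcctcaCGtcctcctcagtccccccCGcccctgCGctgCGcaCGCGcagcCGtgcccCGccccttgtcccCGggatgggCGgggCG
Cd38: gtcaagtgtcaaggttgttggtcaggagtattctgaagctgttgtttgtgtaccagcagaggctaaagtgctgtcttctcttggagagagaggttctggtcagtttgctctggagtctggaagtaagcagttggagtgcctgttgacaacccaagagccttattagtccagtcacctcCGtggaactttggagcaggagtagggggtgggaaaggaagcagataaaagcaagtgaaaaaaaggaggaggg
Nampt held 27 CG dinucleotides with 75.6% G and C, and Cd38 held 1 with 48.8% G and C. Over 27025 windows of the same kind, the median was 6 CG dinucleotides and 52.0% G and C. As many CG dinucleotides as in Nampt, or more, were found in 8.16% of windows, and as few as in Cd38, or fewer, in 19.4%. Among the 8 members with a window, Sirt1 had the most CG dinucleotides (39). Nmnat1 (24 and 23 at its 2 starts), Nadsyn1 (23), Sirt6 (13 and 20) and Nmnat3 (9) lay above the median. Nadk held 4 at one start and 18 at the other. Naprt and Bst1 had no entry. The counts are of letters in these windows, and methylation was not measured.

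No member passed the threshold in PARP1CKO against PARP1 WT (0 of 10; 0.106% of all genes tested passed). DESeq2 and edgeR's likelihood-ratio test also called 0. At an unadjusted p under 0.05 there were 2 of 10, Sirt1 and Sirt6, against 11.3% of all genes. Of the 10 estimates, 5 lay above 0 and 5 below, from -0.15 to 0.18 on the log2 scale. Their median was 0.03 and their median size 0.12, beside a median of 0.01 and a median size of 0.08 over all genes. In 4 of 10 genes the libraries of the 2 groups did not overlap (Sirt6 higher; Nmnat3, Nadsyn1 and Sirt1 lower), beside 41.2% of all genes tested.

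Likewise, no member passed in PARP2CKO against PARP2 WT (0 of 10; 0.053% of all genes), with 0 under DESeq2 and the likelihood-ratio test. None had an unadjusted p under 0.05, against 4.83% of all genes. Estimates ran from -0.30 to 0.19, again 5 above and 5 below 0. The median was -0.01 and the median size 0.06, equal to the median size of 0.06 over all genes. Libraries did not overlap in 4 of 10 genes (Nmnat1 higher; Cd38, Sirt1 and Sirt6 lower), beside 37.2% of all genes. The test of the difference between the 2 deletion effects called 0 of 10 (0.0152% of all genes), with 0 under the other 2 tests and 0 at an unadjusted p under 0.05, against 7.69% of all genes.

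**Figure D2:**
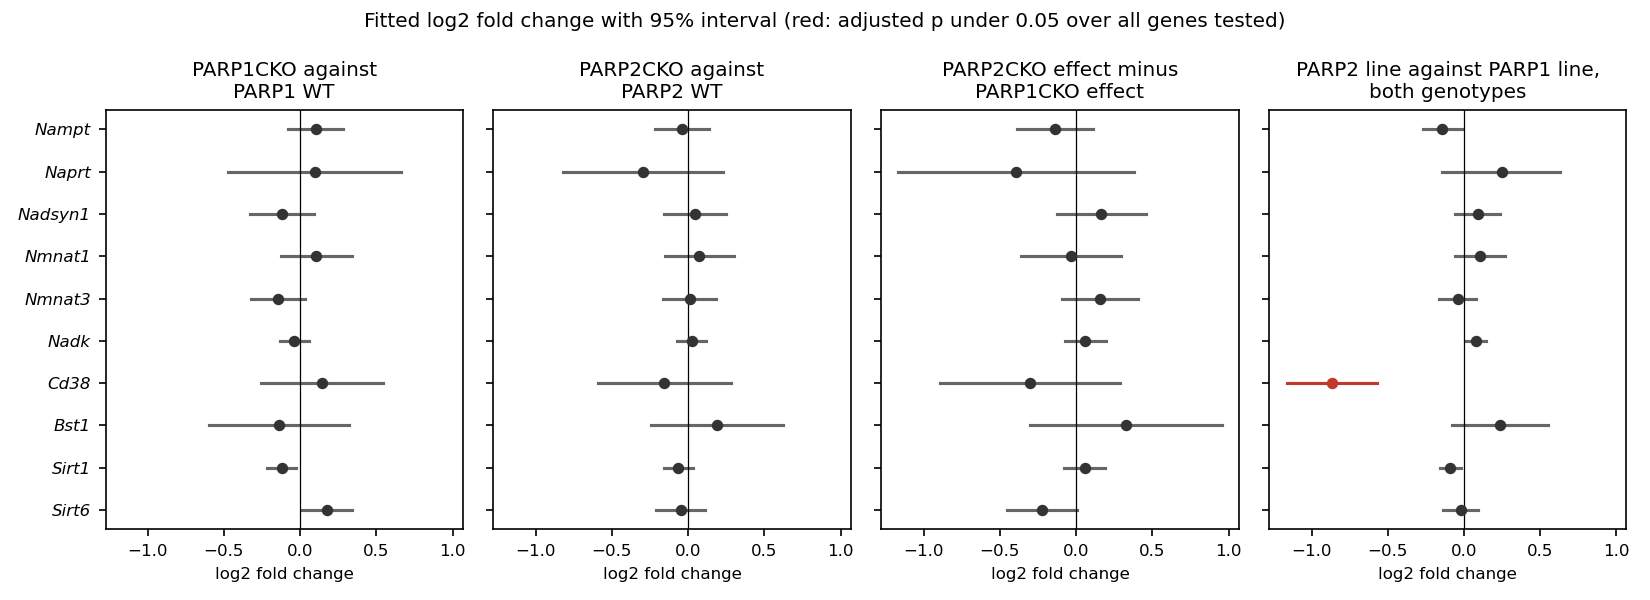
Fitted log2 fold change of each NAD gene with its 95% interval, for both deletions, their difference and the PARP2 line against the PARP1 line. The interval of Cd38 between lines (-1.16 to -0.57) is the one drawn in red, for an adjusted p under 0.05.

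Nampt was at 336 and 292 CPM in the PARP1 WT libraries and 313 and 361 CPM in the PARP1CKO libraries. In the other line it was at 294 and 303 CPM in the PARP2 WT libraries and 288 and 294 CPM in the PARP2CKO libraries. The groups overlapped in both lines, and the libraries of the PARP1 line were spread more widely than those of the PARP2 line. The log2 fold change was 0.10 (95% interval -0.08 to 0.28, adjusted p = 0.649) in PARP1CKO and -0.04 (-0.22 to 0.14, adjusted p = 0.978) in PARP2CKO. Between 0.948-fold and 1.21-fold was therefore the range the data allowed for Nampt after PARP1 deletion, and 0.862-fold to 1.10-fold after PARP2 deletion. The estimate in PARP1CKO fell to -0.000377 without PARP1 WT replicate 2 and to -0.00583 without PARP1CKO replicate 2. The summed interferon response list was at 279 and 203 CPM in the PARP1 WT libraries and 240 and 376 CPM in the PARP1CKO libraries. Nampt and this list put those 4 libraries in the same order. The B cell and plasma cell list ranked them identically, so the shared order was not particular to interferon genes. The part of either list in the Nampt values was not tested.

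The genes of the nicotinic acid route were low, and neither passed the threshold. Naprt was at 1.06 and 1.01 CPM in the PARP1 WT libraries, at 1.27 and 0.929 CPM in PARP1CKO, at 1.33 and 1.48 CPM in the PARP2 WT libraries and 0.956 and 1.35 CPM in the PARP2CKO libraries, from 41 to 77 reads. Its coefficient of variation over the 8 libraries was 17.8%, and Poisson counting at these depths gives 13.0%. The intervals were wide, -0.47 to 0.66 for PARP1 deletion and -0.82 to 0.23 for PARP2 deletion on the log2 scale. The estimate for PARP1 deletion was 0.10, and -0.15 without PARP1CKO replicate 1; that for PARP2 deletion was -0.30, and leaving out replicate 2 of PARP2CKO gave -0.55, replicate 1 of it -0.06. Of the exons of Naprt, 11.8% also belong to Eef1d on the same strand, so its count is uncertain. Nadsyn1 was at 7.39 and 7.56 CPM in the PARP1 WT libraries and 6.84 and 6.92 CPM in the PARP1CKO libraries, both lower, with a log2 fold change of -0.12 (-0.33 to 0.09, adjusted p = 0.646). It was at 7.23 and 7.80 CPM in the PARP2 WT libraries and 8.13 and 7.35 CPM in the PARP2CKO libraries, where the groups overlapped (0.05, -0.16 to 0.25, adjusted p = 0.978). Leaving out 1 library gave -0.0313 to 0.114 for this change.

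The 2 adenylyl transferases, which join the mononucleotide to ATP, gave opposite signs after PARP1 deletion, neither past the threshold. Nmnat1 was at 5.66 and 5.04 CPM in the PARP1 WT libraries and 5.51 and 5.99 CPM in the PARP1CKO libraries (log2 0.11, -0.13 to 0.34, adjusted p = 0.719), a value that was 0.02 without PARP1 WT replicate 2 and 0.19 without PARP1 WT replicate 1. It was at 5.78 and 5.82 CPM in the PARP2 WT libraries and 6.15 and 6.05 CPM in the PARP2CKO libraries (log2 0.07, -0.15 to 0.30, adjusted p = 0.977), so the PARP2 groups did not overlap but lay close together. Nmnat3 was at 9.07 and 9.49 CPM in the PARP1 WT libraries and 8.54 and 8.23 CPM in the PARP1CKO libraries. Both PARP1CKO libraries were lower, with a log2 fold change of -0.15 (-0.33 to 0.03, adjusted p = 0.503). The PARP2 WT libraries had 8.59 and 8.50 CPM and the PARP2CKO libraries 8.43 and 8.78 CPM of it, with a log2 fold change of 0.01 (-0.17 to 0.18). The sign of this change turned under scaling by library size alone, and leaving out 1 library gave -0.0192 to 0.039.

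Nadk had the narrowest range of the 10 genes, with its highest library 1.128-fold above its lowest. It was at 164 and 165 CPM in the PARP1 WT libraries, 164 and 156 CPM in PARP1CKO, 171 and 169 CPM in the PARP2 WT libraries and 176 and 169 CPM in PARP2CKO. The groups of each line overlapped. Its log2 fold change was -0.04 (-0.13 to 0.06, adjusted p = 0.758) in PARP1CKO and 0.02 (-0.07 to 0.12, adjusted p = 0.978) in PARP2CKO. Leaving out 1 library gave -0.0752 to -0.00258 in PARP1CKO and -0.00862 to 0.0537 in PARP2CKO. Scaling by library size alone also turned the sign in PARP2CKO.

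Among the sirtuins, Sirt1, a deacetylase of histones and transcription factors, was at 45.8 and 44.0 CPM in the PARP1 WT libraries and 41.5 and 41.1 CPM in the PARP1CKO libraries. Both PARP1CKO libraries were below both controls. The log2 fold change was -0.12 (-0.22 to -0.02), with an unadjusted p = 0.0194 and an adjusted p = 0.355. The PARP2 WT libraries had 41.1 and 41.5 CPM and the PARP2CKO libraries 39.9 and 39.2 CPM of it, again without overlap, with a log2 fold change of -0.07 (-0.16 to 0.03, adjusted p = 0.954). The estimates stayed below 0 in both lines under every alternative run, from -0.15 to -0.10 and from -0.09 to -0.05, and none was called. An antisense gene, Gm16145, shares 1.22% of its exons, and the strand setting of the counting is not given in the sources used here. Sirt6, a chromatin deacylase with a role in DNA repair, was at 13.98 and 12.68 CPM in the PARP1 WT libraries and 15.4 and 14.6 CPM in the PARP1CKO libraries. Both PARP1CKO libraries were above both controls, with a log2 fold change of 0.18 (0.01 to 0.34, unadjusted p = 0.0386, adjusted p = 0.418), which was 0.10 without PARP1 WT replicate 2 and 0.24 without PARP1 WT replicate 1. The PARP2 WT libraries had 14.35 and 13.97 CPM and the PARP2CKO libraries 13.8 and 13.5 CPM of it, with a log2 fold change of -0.05 (-0.21 to 0.11, adjusted p = 0.977). The 2 deletion effects on Sirt6 differed by -0.22 (-0.45 to 0.00494, unadjusted p = 0.0541, adjusted p = 0.654).

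**Figure D3:**
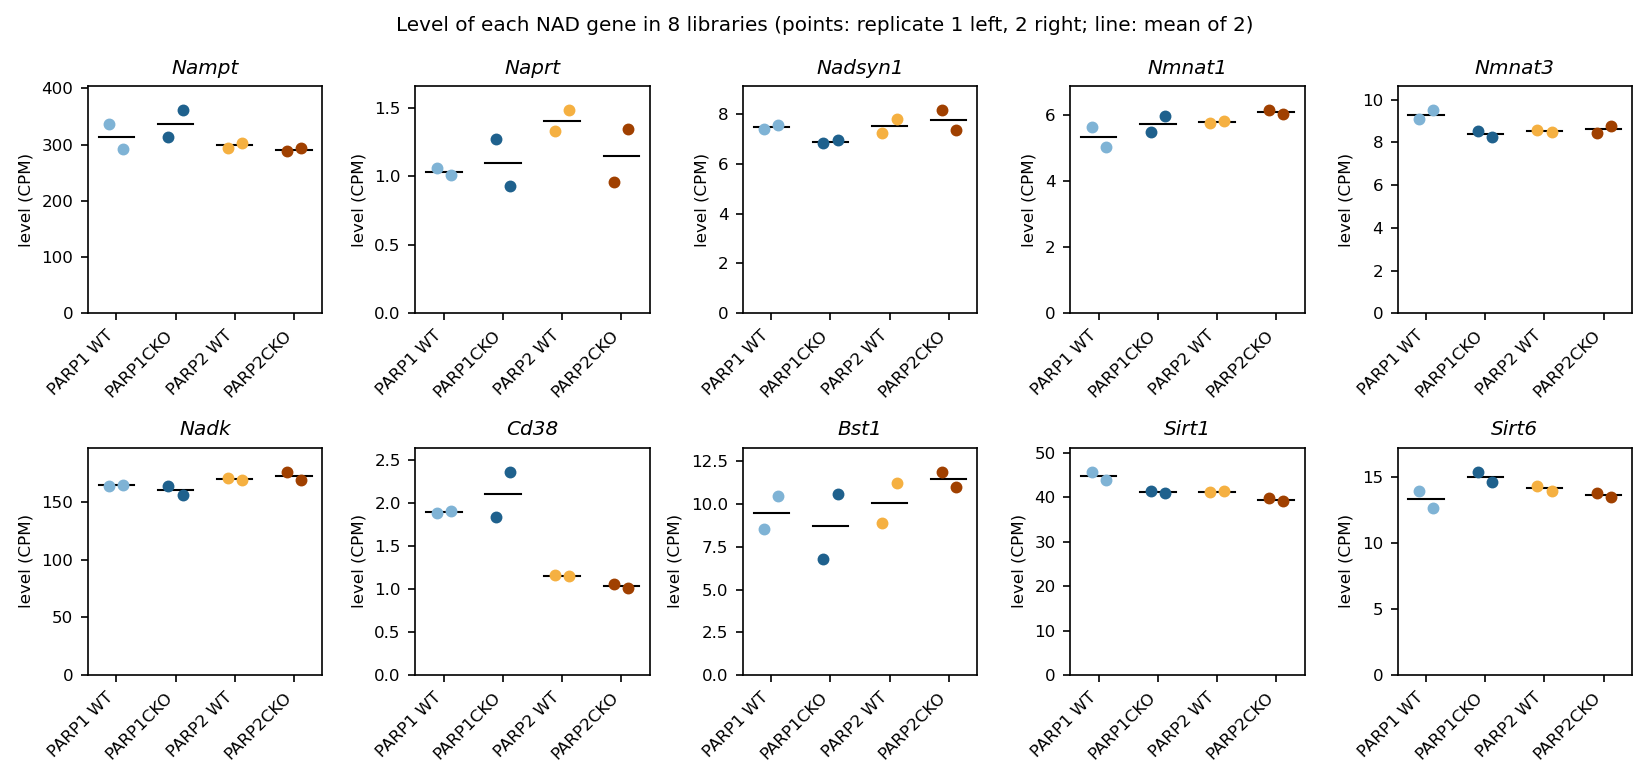
Level of each of the 10 genes (CPM, axes from 0) in the 8 libraries, with replicate 1 on the left and 2 on the right of each group and the mean as a line. Cd38 lies at 1.84 to 2.37 CPM in the PARP1 line and at 1.02 to 1.16 CPM in the PARP2 line, while Nadk spans 156 to 176 CPM.

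The glycohydrolase gene Cd38 was the member with the widest range, its highest library 2.33-fold above its lowest. It was at 1.89 and 1.91 CPM in the PARP1 WT libraries, at 1.84 and 2.37 CPM in PARP1CKO, at 1.16 and 1.15 CPM in the PARP2 WT libraries and 1.06 and 1.02 CPM in the PARP2CKO libraries, from 49 to 107 reads. All 4 PARP2-line libraries were below all 4 PARP1-line libraries. The lines did not overlap in 2 of 10 members, Cd38 lower and Nadk higher in the PARP2 line, beside 20.4% of all genes. The WT groups did not overlap in 6 of 10 members (Naprt, Nmnat1 and Nadk higher and Nmnat3, Cd38 and Sirt1 lower in PARP2 WT), beside 51.9% of all genes. The coefficient of variation of Cd38 was 33.1%, and Poisson counting gives 11.5%. The deletions gave log2 fold changes of 0.14 (-0.26 to 0.54, adjusted p = 0.788) for PARP1 and -0.16 (-0.59 to 0.28, adjusted p = 0.977) for PARP2. Without PARP1CKO replicate 2, its highest library, the estimate for PARP1 deletion was -0.04. Between the WT groups alone, PARP2 WT against PARP1 WT, the log2 fold change was -0.72 ± 0.184 (SE; -1.13 to -0.30), with an adjusted p = 0.0794 that missed the threshold. In that comparison 0 of 10 members passed (3.16% of all genes) and 2 had an unadjusted p under 0.05, Cd38 and Sirt1 (18.9% of all genes). DESeq2 called 0 there and the likelihood-ratio test called 1, Cd38.

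A comparison of the 4 PARP2-line with the 4 PARP1-line libraries was added after the data were seen. It gave Cd38 a log2 fold change of -0.87 ± 0.130 (SE, n = 4 against 4; -1.16 to -0.57), which is 0.548-fold, with an adjusted p = 0.00339. Cd38 was called in all 15 alternative fits of this comparison, with estimates from -0.95 to -0.77 and adjusted p-values from 4.86e-07 to 0.0185. It was the only 1 of 10 members called in this fit, beside 16.4% of all genes tested called in either direction and 8.04% called lower, so the share of members was close to the background. At an unadjusted p under 0.05 there were 4 of 10 members, against 31.9% of all genes. Of the others, Sirt1 was at -0.09 (-0.16 to -0.02, adjusted p = 0.0716). Nampt was at -0.14 (-0.27 to -0.02, adjusted p = 0.115) and Nadk at 0.08 (0.01 to 0.14, adjusted p = 0.115). Bst1 was at 0.24 (-0.08 to 0.55, adjusted p = 0.275), and leaving out 1 library gave 0.094 to 0.413. The floxed strain, its litters and any handling shared by a line cannot be told apart here.

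Other measurements moved with Cd38. The B cell and plasma cell list summed to 36.2 and 30.6 CPM in the PARP1 WT libraries, 32.4 and 46.0 CPM in PARP1CKO, 13.3 and 11.9 CPM in the PARP2 WT libraries and 9.17 and 12.03 CPM in PARP2CKO. Of its 9 genes, 8 were tested and 7 called lower in the PARP2 line, and none was at 0 in all libraries. Cd79a, a chain of the B cell receptor, lay at 8.20 to 12.8 CPM in the PARP1 line and 1.95 to 2.86 CPM in the PARP2 line. The lines overlapped for Vpreb1, of pre-B cells, and for the plasma cell gene Jchain. Jchain was at 1.42 and 0.988 CPM in the PARP1 WT libraries, 1.37 and 2.70 CPM in PARP1CKO, 1.80 and 2.42 CPM in the PARP2 WT libraries and 0.989 and 0.932 CPM in PARP2CKO. All 11 interferon response genes and all 6 basophil and mast cell genes were also called lower, as were 4 of 5 tested erythroid and 2 of 4 progenitor genes. Hba-a1 and Hba-a2 of the erythroid list had the same level in each library, so they are not separate entries. Of the monocyte and macrophage genes, 4 of 9 were called, all 4 higher in the PARP2 line, and of the neutrophil genes 2 of 11 were called higher and 3 lower. Of the remaining lists, 1 dendritic and 1 stroma gene were called higher, 1 dendritic gene lower, and no immature myeloid, T or NK cell gene was called. Of the T and NK cell list, only 2 genes were tested. Over all genes tested, 16.4% were called between the lines in either direction and 8.04% were called lower in the PARP2 line. Cd38, the B cell list and the interferon list were each highest in PARP1CKO replicate 2. So were the T and NK cell list, the erythroid list and the basophil and mast cell list. The part of the marker lists in the Cd38 difference was not tested, and in these bulk samples fewer cells of a type and less RNA per cell cannot be told apart.

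**Figure D4:**
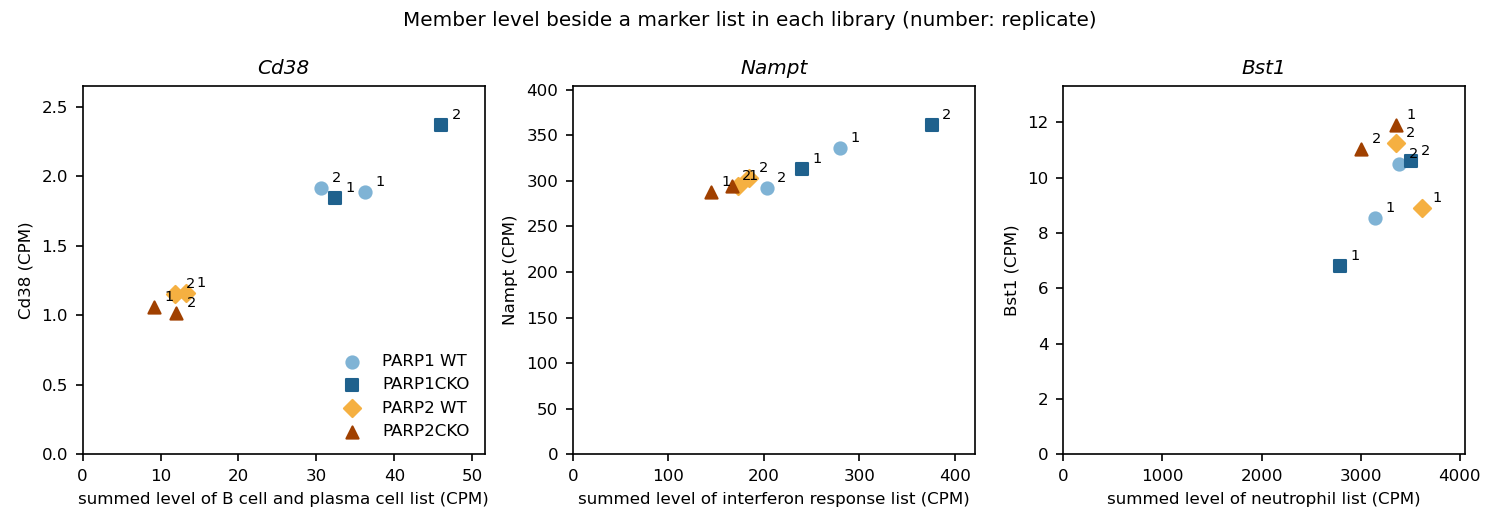
Level of Cd38, Nampt and Bst1 (CPM) beside the summed level of a marker list (CPM) in each library, numbered by replicate and drawn by group. The PARP2-line libraries lie at 9.17 to 13.3 CPM of the B cell and plasma cell list and at 1.02 to 1.16 CPM of Cd38, apart from the PARP1-line libraries.

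Bst1, the paralog and neighbour of Cd38, was not called between the lines in the main fit, though the call changed in 1 of 15 alternatives. In GRCm38, with GENCODE M21 annotation, Bst1 lies at chr5:43818885-43843986 and Cd38 at chr5:43868553-43912375, both on the + strand and 24566 bases apart. Bst1 was at 8.53 and 10.5 CPM in the PARP1 WT libraries, 6.80 and 10.6 CPM in PARP1CKO, 8.89 and 11.2 CPM in the PARP2 WT libraries and 11.89 and 11.02 CPM in PARP2CKO. The groups of each line overlapped, and the 2 PARP1CKO replicates lay furthest apart. The log2 fold changes were -0.14 (-0.59 to 0.32, adjusted p = 0.822) for PARP1 deletion and 0.19 (-0.25 to 0.62, adjusted p = 0.968) for PARP2 deletion. Without PARP1CKO replicate 1 the former became 0.15, and without PARP1 WT replicate 2 it became 0.02. The latter ran from 0.03 without PARP2 WT replicate 1 to 0.37 without PARP2 WT replicate 2. PARP1CKO replicate 1 was the lowest of the 8 for Bst1 and also for the neutrophil list (2793 CPM, beside 3005 to 3620 CPM in the others). It was also the lowest for the dendritic list (29.64 CPM) and the stroma list (1.725 CPM). Bst1 and the neutrophil list did not rank the other libraries alike. PARP2 WT replicate 1 had the highest neutrophil sum (3620 CPM) with 8.89 CPM of Bst1, and PARP2CKO replicate 2 had 3005 CPM with 11.02 CPM of Bst1. The part of these lists in the Bst1 values was not tested. On the opposite strand, Fbxl5 shares 2.95% of the exons of Bst1. Within 1000000 bases of Cd38, 5 other genes were tested besides Bst1. None was called lower in the PARP2 line, and 2 were called higher, beside 16.4% of all genes called in either direction: Cc2d2a (log2 0.67, adjusted p = 0.00239) and Prom1 (log2 0.44, adjusted p = 0.0155).

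By Euclidean distance of scaled log2 levels over the 8 libraries, the genes most like Cd38 among 13196 were Sipa1l1 (distance 0.384), Pogk (0.467) and Rfx3 (0.473). Sipa1l1 lay at 27.8 to 30.1 CPM in the PARP1 line and 21.2 to 22.5 CPM in the PARP2 line. In the same order, Pogk lay at 55.85 to 58.53 CPM and 48.75 to 50.46 CPM, and Rfx3 at 4.26 to 4.64 CPM and 3.91 to 3.96 CPM. The scaling sets aside the size of a change, so these genes are alike in pattern only. Over the members, the highest library exceeded the lowest by a median of 1.22-fold, beside 1.21-fold over all genes tested, and 4 of 10 members lay at or under the latter.

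The wider NAD pathway was covered by a list of 45 other genes. All 45 were in the table and 30 passed the filter. The first enzymes of synthesis from tryptophan, Tdo2, Ido1 and Ido2, had at most 5 reads in a library and Acmsd had 0 in each of the 8 libraries. Nmnat2, Nmrk2 and Nnmt had at most 2 reads. The remaining untested genes were the transporters Slc12a8 and Slc5a8 (at most 5 reads) and the mono-ADP-ribosyltransferases Art1, Art2b, Art3, Art4 and Art5 (at most 13 reads), with Art2a, which stands in the table under the pseudogene symbol Art2a-ps and had 0 reads. Low counts here limit what a difference could show. Of the 30 tested genes, 0 were called after PARP1 deletion, after PARP2 deletion or for the difference, with 0 also under DESeq2 and the likelihood-ratio test. Over all genes, 0.106%, 0.053% and 0.0152% were called in these comparisons. At an unadjusted p under 0.05 there were 1, 1 and 2 of the 30, against 11.3%, 4.83% and 7.69% of all genes. Parp3, a PARP of the DNA-break response, had the smallest adjusted p after PARP1 deletion: it was at 50.0 and 50.7 CPM in the PARP1 WT libraries and 57.5 and 56.9 CPM in the PARP1CKO libraries (log2 0.18, 0.08 to 0.28, adjusted p = 0.253). Nmrk1, the nicotinamide riboside kinase, had the smallest after PARP2 deletion, at 10.9 and 11.1 CPM in the PARP2 WT libraries and 12.3 and 12.7 CPM in PARP2CKO (log2 0.18, 0.03 to 0.33, adjusted p = 0.888). The median size of the log2 change was 0.07 after either deletion, beside 0.08 and 0.06 over all genes. After PARP1 deletion 22 of the 30 estimates lay above 0, with a median of 0.04 beside 0.01 over all genes, and the libraries did not overlap in 7 genes that were higher and 1 that was lower, beside 41.2% of all genes. After PARP2 deletion 18 lay above 0, and the libraries did not overlap in 10 genes that were higher and 5 that were lower, beside 37.2% of all genes. None of the other 5 sirtuins was called in any comparison; Sirt2, mainly a cytosolic deacetylase, lay at 129 to 141 CPM, Sirt7 at 45.4 to 48.1 CPM, and the mitochondrial Sirt3, Sirt4 and Sirt5 at 3.61 to 5.95 CPM.

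Between lines, 8 of the 30 were called, 4 higher and 4 lower in the PARP2 line, beside 16.4% of all genes. Several marker lists described above differed between the same lines, and their part in these differences was not tested. The floxed strain, its litters and any handling shared by a line cannot be told apart for these genes either. Pnp, a purine nucleoside phosphorylase that also releases nicotinamide from its riboside, had the smallest p. It lay at 112 to 119 CPM in the PARP1 line and 79.8 to 82.2 CPM in the PARP2 line, without overlap (log2 -0.53, adjusted p = 5.75e-05). Pnp has a close copy, Pnp2, listed at 0.605 to 0.905 CPM, and reads could be split between them, so its count is uncertain. Kmo, a hydroxylase of the kynurenine path, was at 4.16 to 6.46 CPM and 2.41 to 3.89 CPM (log2 -0.83, adjusted p = 0.00955). Nadk2, the mitochondrial NAD kinase (log2 -0.14, adjusted p = 0.0344), and Parp4 (log2 -0.14, adjusted p = 0.0181) were also lower. Nnt, the mitochondrial transhydrogenase that passes hydride from NADH to NADP, was at 42.7 to 45.8 CPM and 57.9 to 76.5 CPM (log2 0.59, adjusted p = 0.00504). Enpp1, a surface pyrophosphatase that can split NAD, was at 19.8 to 24.5 CPM and 28.8 to 32.4 CPM (log2 0.44, adjusted p = 0.00136). Noct, an NADP phosphatase (log2 0.31, adjusted p = 0.0074), and Rps19bp1, an activator of SIRT1 (log2 0.20, adjusted p = 0.0169), were also higher. The count was 5 without PARP2 WT replicate 2, and 5 to 9 over all alternatives. Between the WT groups alone, 3 of the 30 were called, beside 3.16% of all genes, namely Pnp (-0.54, adjusted p = 0.00088), Enpp1 (0.47, adjusted p = 0.0156) and Nnt (0.61, adjusted p = 0.0489). That count was 1 without PARP1 WT replicate 1 or without PARP2 WT replicate 2, and 1 to 4 over all alternatives.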

How the data were processed

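RNA-seq libraries from total RNA (4 µg, TruSeq Stranded, Illumina sequencing) were aligned by the authors with TopHat2 2.0.12 to mm10, duplicates were marked with Picard 1.127, and reads were counted per gene with featureCounts; its version, annotation, strand setting and handling of duplicates are not given in the sources used here. The deposited values are raw counts. All 8 columns of the table matched a sample. Counts were fitted in edgeR 4.0.16 (R 4.3.3; filterByExpr, TMM, glmQLFit and glmQLFTest) with a mean per group over all 8 libraries; contrasts were each knockout against its WT, their difference and WT against WT. SE is the log2 fold change divided by the square root of F. The common dispersion corresponded to a coefficient of variation of 0.055 between libraries. The study's own methods name FPKM as input, which was replaced because counts were deposited. The scripts were tested on simulated data. The members and lists were chosen with earlier results of these data known. Named genes were all members, every called gene of the wider list and, where none was called, the one with the smallest p; the printed promoters and the neighbours of Cd38 were chosen after values were seen. Levels per length used exons of GENCODE M21, and promoter sequence came from RefSeq. Alternatives were DESeq2 1.42.0, a likelihood-ratio test, other filters and scaling, a replicate block and leaving out each library. The series is described as biological duplicates, without saying which mice or cultures each library came from, so p-values measure the spread between these libraries.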

Additional observations from a re-analysis of the deposited data

Results flagged for a closer look

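The effect on Parp2 differed between the 2 deletions by a test of the difference itself, which called 2 genes in all: its log2 change in PARP2CKO lay -0.82 from that in PARP1CKO (adjusted p = 0.00634). It is the gene deleted in PARP2CKO, and none of the 10 members and none of the 30 other NAD pathway genes tested passed that test.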

How the results depend on the processing

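Over the 10 genes and 5 comparisons, 752 alternative values kept direction and side of the threshold, 21 turned sign and 7 passed it. Scaling by library size alone turned Nmnat3 (-0.0165) and Nadk (-0.00308) after PARP2 deletion and Nadsyn1 between WT groups (-0.0324). The cause of the changes below was not tested. Leaving out 1 library gave, after PARP1 deletion, -0.00583 to 0.202 for Nampt, -0.152 to 0.297 for Naprt, -0.0449 to 0.315 for Cd38, -0.49 to 0.149 for Bst1, 0.0187 to 0.187 for Nmnat1 and 0.10 to 0.243 for Sirt6. After PARP2 deletion it gave -0.0192 to 0.039 for Nmnat3, -0.00862 to 0.0537 for Nadk, -0.0313 to 0.114 for Nadsyn1, -0.554 to -0.061 for Naprt and 0.0275 to 0.368 for Bst1. Between WT groups it gave -0.172 to 0.0308 for Nampt, -0.0505 to 0.0617 for Nadsyn1, -0.104 to 0.237 for Bst1 and -0.41 to 0.282 for Parp1. For the difference of effects it gave -0.113 to 0.0551 for Nmnat1, and between lines -0.0569 to 0.0141 for Sirt6.

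Members called between lines numbered 2 under library size alone (with Sirt1, adjusted p = 0.0161) and 2 under DESeq2 (with Nampt). They numbered 1 to 2 when a library was left out: Nampt joined without PARP1 WT replicate 2 (adjusted p = 0.0446) or PARP1CKO replicate 1 (0.0328), and Bst1 without PARP1CKO replicate 2 (0.0441). Between WT groups, Cd38 was called under the likelihood-ratio test (1 member, adjusted p = 0.0194) and with no filter (1 member, 0.0457). Over all genes, calls after PARP1 deletion numbered 14, and 86 under DESeq2, 146 under the likelihood-ratio test, 101 with no filter and 1 to 34 with a library left out. After PARP2 deletion they numbered 7, and 27, 39, 26 and 4 to 19 in the same order. For the difference they numbered 2, and 45, 72, 61 and 1 to 16. Between WT groups they numbered 417, and 910 under the likelihood-ratio test, 872 with no filter and 85 to 566 with a library left out. Between lines they numbered 2164, and 1082 to 2327 with a library left out. Over the wider NAD list, calls between lines numbered 8 (5 to 9 over all alternatives) and between WT groups 3 (1 to 4).

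With the longest transcript as length, levels per kb were 68.5 for Nampt, 0.618 for Naprt, 2.16 for Nmnat1, 4.02 for Nmnat3, 52.9 for Nadk, 2.80 for Nadsyn1, 9.42 for Sirt1 and 7.43 for Sirt6. Replicate numbers were not shown to pair libraries: same-number deviations correlated at -0.133 in the PARP1 line and 0.147 in the PARP2 line. With the replicate number as a block, calls over all genes were 14, 6, 3, 315 and 2028 in the order above, and members called were 0, 0, 0, 0 and 1, and the block changed no call of a member; with crossed numbers the PARP1 count was 18. Of the genes described, Naprt and Cd38 rest on 41 to 77 and 49 to 107 reads a library, and every deletion comparison on 2 libraries against 2.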
